A study of Oryza sativa with 6 samples.

Results

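In mature rice leaves, 10 genes that encode enzymes of chlorophyll synthesis were followed in an SRL1 knockout (srl1-KO) and in its control (non-KO). They were chosen by their identifiers in the rice annotation, and all 10 are among the 39477 loci of the deposited table. The reference gene table places a gene of the same name or a synonym on the chromosome of the identifier for 8 of them. The names HEMA1 and CRD1 could not be checked in this way. The samples are Oryza sativa leaves collected 60 days after germination, from plants kept at 30 °C in daytime and 25 °C at night, with 3 libraries per genotype. The labels describe the groups as SRL1 knockout mutants and as a control without the knockout, and give no cultivar, allele, number of plants or hour of collection. The protocol mentions a single plant as the source of leaves, and whether each library has a plant of its own is not stated, so the p-values measure the spread between these libraries, which may be technical. SRL1 encodes a putative membrane-anchored protein that affects leaf rolling, and the study asked which genes depend on it.

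Chlorophyll is built in the chloroplast from glutamate. The early steps make 5-aminolevulinic acid and join it into protoporphyrin IX, which either receives magnesium and becomes chlorophyll or receives iron and becomes heme. After the magnesium is inserted, the ring is methylated, closed, reduced in the light and given its lipid tail, and part of the product is oxidised to the b form that antenna proteins need. In rice, loss of several of these enzymes is known to give pale or yellow-green leaves.

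Of the 10 genes, 1 fell and 1 rose in srl1-KO. HEMA1, the entry enzyme of the pathway, stood 1.73-fold lower, and PORA, an enzyme of the light-dependent step, stood 2.34-fold higher. The other 8 did not pass the test, which was limma on log2(FPKM + 1) with a threshold of 0.05 on the p adjusted over all 19556 tested loci. FPKM counts the fragments of a gene per kilobase of its transcript, scaled by all fragments mapped in that library. In this comparison 27.2% of all tested loci were called, 15.3% as rises and 11.9% as falls, so a count of 2 in 10 is near the background. Rises made up 56.3% of these calls, and 42.2% after scaling by trimmed-mean (TMM) factors, under which HEMA1 (limma adjusted p = 0.00473) and PORA (0.0499) also passed. The median log2 change (srl1-KO minus non-KO) was 0.15 over the 10 genes and 0.11 over all tested loci. The genes are described below in the order of the pathway.

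**Figure D1:**
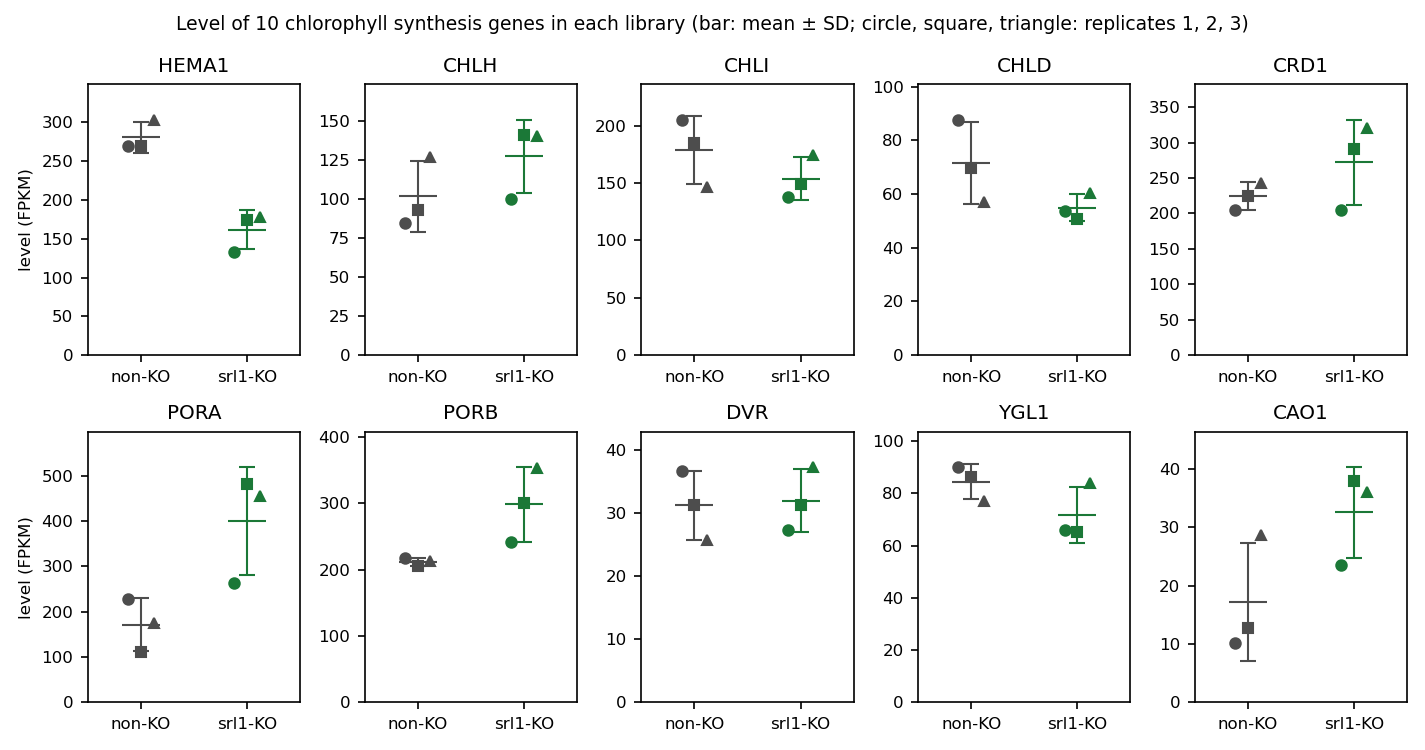
Level in FPKM (vertical axes, each from 0) of the 10 genes in the 3 non-KO libraries (grey) and the 3 srl1-KO libraries (green), with circles, squares and triangles for replicates 1, 2 and 3 and bars for the mean ± SD. HEMA1 lies lower in every srl1-KO library and PORA and PORB lie higher in every one, while the genotypes overlap for the other 7.

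HEMA1 (Os10g0502400, chromosome 10) encodes glutamyl-tRNA reductase, which makes the precursor of 5-aminolevulinic acid and is known as the main control point of the flow into the pathway. In srl1-KO replicates 1, 2 and 3, in that order, it was at 133, 174 and 178 FPKM, and in those of non-KO at 269, 269.9 and 303 FPKM. All values below are given in this order. Every srl1-KO library lay below every non-KO library, with a wide gap between them. The means were 162 ± 24.8 FPKM in srl1-KO and 281 ± 19.6 FPKM in non-KO (SD, n = 3 each). The log2 change was -0.80 ± 0.15 (SE; limma adjusted p = 0.00971), with a 95% interval from -1.15 to -0.45. HEMA1 passed the threshold in all 17 other settings of the fit that were run, with log2 changes from -0.92 to -0.63. A two-sided exact permutation of the 6 libraries gave p = 0.1, and with 3 against 3 it cannot give less.

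Magnesium chelatase, which commits protoporphyrin IX to chlorophyll, has 3 subunits, and none of their genes passed the test. CHLH (Os03g0323200, chromosome 3) encodes the large subunit that binds the porphyrin. It was at 100.1, 141 and 140.3 FPKM in srl1-KO and at 84.6, 92.8 and 127 FPKM in non-KO. The genotypes overlapped only through srl1-KO replicate 1 and non-KO replicate 3. The log2 change was 0.33, with a 95% interval from -0.16 to 0.82 (limma adjusted p = 0.273), and became 0.21 when non-KO replicate 1 and 0.50 when non-KO replicate 3 was left out.

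CHLI (Os03g0563300) and CHLD (Os03g0811100), also on chromosome 3, encode the subunits of the ATP-driven motor of the chelatase. CHLI was at 138, 149 and 174 FPKM in srl1-KO and at 205, 185 and 147 FPKM in non-KO. CHLD was at 53.9, 50.8 and 60.3 FPKM in srl1-KO and at 87.7, 69.8 and 57.2 FPKM in non-KO. For both motor subunits, non-KO replicate 3 reached into the srl1-KO range and the other non-KO libraries lay above it. The 95% interval of the log2 change ran from -0.60 to 0.18 for CHLI and from -0.76 to 0.05 for CHLD, with limma adjusted p of 0.368 and 0.163. The log2 changes, -0.21 and -0.36, became -0.10 and -0.20 when non-KO replicate 1 and -0.34 and -0.50 when non-KO replicate 3 was left out.

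CRD1 (Os01g0279100, chromosome 1) encodes the magnesium protoporphyrin IX monomethyl ester cyclase, which closes the isocyclic ring. CRD1 reached 205, 291 and 320.4 FPKM in srl1-KO and 204.5, 225 and 244 FPKM in non-KO. In srl1-KO, replicates 2 and 3 lay above all non-KO libraries, and replicate 1 lay level with the lowest of them. The log2 change was 0.26, with a 95% interval from -0.19 to 0.71 (limma adjusted p = 0.343). It was 0.13 without srl1-KO replicate 3 and 0.45 without srl1-KO replicate 1, and missed the threshold in both.

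DVR (Os03g0351200, chromosome 3) encodes the divinyl reductase, which reduces a vinyl side group of the ring. It was at 27.3, 31.4 and 37.3 FPKM in srl1-KO and at 36.6, 31.4 and 25.8 FPKM in non-KO, so that the genotypes covered nearly the same range. The mean was 32 ± 5.03 FPKM in srl1-KO and 31.3 ± 5.45 FPKM in non-KO (SD, n = 3 each). The 95% interval of the log2 change, from -0.37 to 0.44 (limma adjusted p = 0.894), bounds a difference in either direction.

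The light-dependent reduction of protochlorophyllide to chlorophyllide is carried out by PORA and PORB. In rice, PORA is known mainly from dark-grown and greening seedlings, and PORB from light-grown leaves. Averaged over the 6 libraries, they were the most abundant of the 10. PORA (Os04g0678700, chromosome 4) was at 264, 481 and 456 FPKM in srl1-KO and at 227, 112 and 175.5 FPKM in non-KO. The genotypes did not overlap, but srl1-KO replicate 1 lay close to non-KO replicate 1 and well below the other srl1-KO libraries. The means were 400.3 ± 119 and 171 ± 57.8 FPKM (SD, n = 3 each). On the log2 scale PORA was higher by 1.23 ± 0.33 (SE), with a limma adjusted p of 0.0355.

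The call of PORA depended on single libraries and on the settings of the fit. Its limma adjusted p was 0.116 without srl1-KO replicate 2, 0.0879 without srl1-KO replicate 3, 0.0816 when non-KO replicate 2 and 0.073 when non-KO replicate 3 was left out, with log2 changes of 1.07, 1.11, 0.95 and 1.28. It was 0.0676 with no filter on low values and 0.0897 with the replicate number as a block. The direction was upward in all 17 other settings, and 11 of them passed the threshold.

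PORB (Os10g0496900, chromosome 10) was at 241, 301 and 353 FPKM in srl1-KO and at 218, 205 and 213 FPKM in non-KO. The genotypes did not overlap, and the non-KO libraries lay within a narrow band. Its log2 change was 0.47 ± 0.16 (SE), with a 95% interval from 0.09 to 0.85, and missed the threshold (limma adjusted p = 0.0682). It passed without srl1-KO replicate 1 (log2 change 0.62, limma adjusted p = 0.0363) and with quantile normalization (log2 change 0.63, limma adjusted p = 0.0248). It stood at 0.34 on the log2 scale without srl1-KO replicate 3 (limma adjusted p = 0.139) and 0.36 with TMM factors (0.138). PORA and PORB are related in sequence, and how reads that match both were counted is not given in the sources used here.

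YGL1 (Os05g0349700, chromosome 5) encodes chlorophyll synthase, which attaches the lipid tail to chlorophyllide, and its loss is known to give yellow-green leaves in rice. YGL1 reached 66.0, 65.4 and 84.0 FPKM in srl1-KO and 90.1, 86.3 and 77.2 FPKM in non-KO. The genotypes overlapped through replicate 3 of each, and the other srl1-KO libraries lay below all of non-KO. The log2 change was -0.24, with a 95% interval from -0.56 to 0.08 (limma adjusted p = 0.226).

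CAO1 (Os10g0567400, chromosome 10) encodes chlorophyllide a oxygenase, which makes the b form. It was at 23.6, 38.0 and 35.9 FPKM in srl1-KO and at 10.2, 12.7 and 28.7 FPKM in non-KO. The genotypes overlapped because non-KO replicate 3 lay above srl1-KO replicate 1, while the other non-KO libraries lay below all of srl1-KO. The means, 32.5 ± 7.78 and 17.2 ± 10.1 FPKM (SD, n = 3 each), differed by a log2 change of 0.99 ± 0.38 (SE) that missed the threshold (limma adjusted p = 0.0994). Without non-KO replicate 3 the log2 change was 1.41 and passed it (limma adjusted p = 0.0147), as it did with library weights (0.0397). It was 0.70 (0.248) without non-KO replicate 1 and 0.86 (0.245) without srl1-KO replicate 2.

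Of the 10 genes, 3 had no overlap between genotypes (HEMA1, PORA and PORB), against 47.1% of all tested loci. The 2 genes with higher values and no overlap compare with a background of 29.4%, and the 1 gene with lower values with 17.8%. A log2 change above 0 was seen for 6 of the 10 genes and for 59.9% of all tested loci. These shares are near or below the background. In bulk leaf RNA, fewer cells of a type and less RNA per cell cannot be told apart.

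**Figure D2:**
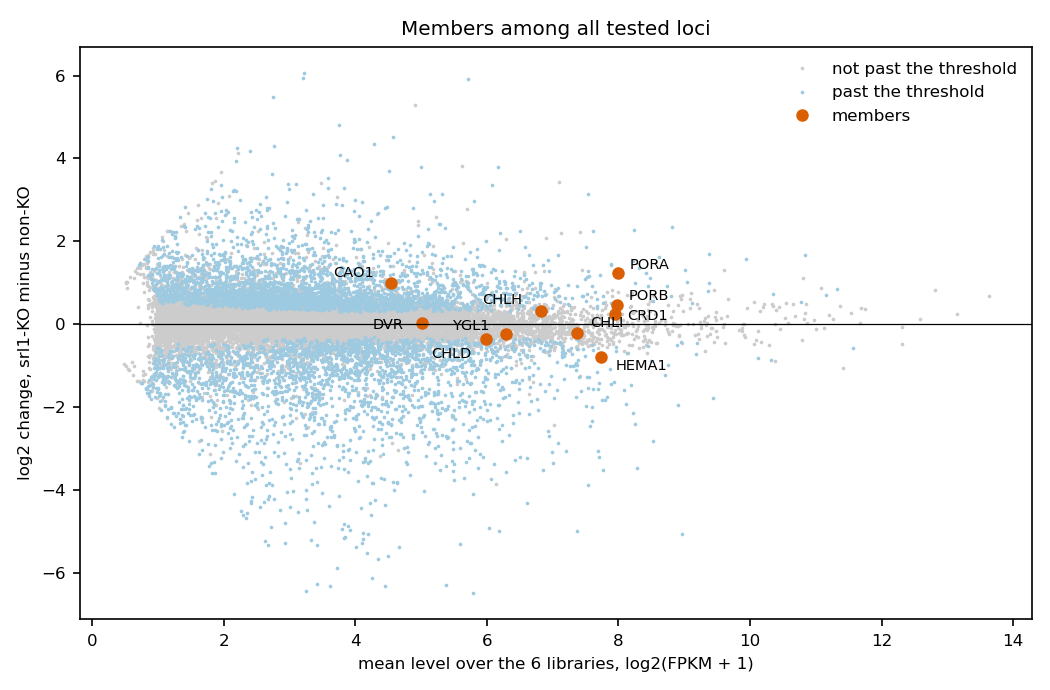
Log2 change between genotypes (vertical axis, srl1-KO minus non-KO) against the mean level over the 6 libraries (horizontal axis, log2(FPKM + 1)) for the 19556 tested loci, with the 10 genes in orange. The genes lie in the upper part of the level range, HEMA1 at -0.80 and PORA at 1.23 being the lowest and the highest of them.

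All 10 genes were well expressed and passed the filter on low values, which asked for 1 FPKM or more on average. Their mean levels ran from CAO1, at 24.8 FPKM and above 77.7% of tested loci, to PORA, at 286 FPKM and above 98.8%. Because FPKM is per length, levels can be set side by side between genes. In non-KO, HEMA1 was the most abundant at 281 FPKM and lay above CRD1 (224 FPKM) in every library without overlap. CRD1 and PORB (212 FPKM) overlapped, as did CHLI (179 FPKM) and PORA (171 FPKM), PORA and CHLH (101 FPKM), CHLH and YGL1 (84.5 FPKM), and YGL1 and CHLD (71.6 FPKM). DVR (31.3 FPKM) and CAO1 (17.2 FPKM) came last and overlapped each other.

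In srl1-KO the order began with PORA (400.3 FPKM), PORB (298 FPKM) and CRD1 (272 FPKM), and each overlapped the next. PORA was nevertheless above PORB, and PORB above CRD1, in 3 of 3 srl1-KO libraries. HEMA1 (162 FPKM) came after them without overlap with CRD1, and overlapped CHLI (154 FPKM). Thus HEMA1 stood at rank 1 in non-KO and at rank 4 in srl1-KO, and PORA at rank 5 and rank 1. CAO1 (32.5 FPKM) and DVR (32 FPKM) again came last and overlapped. The summed level of the 10 genes ran from 1252 to 1840 FPKM over the srl1-KO libraries and from 1290 to 1433 FPKM over the non-KO libraries, which is 0.209% to 0.296% and 0.208% to 0.228% of all FPKM.

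Ratios between genes within a library set their levels side by side without the scaling of the library. The ratios printed are of FPKM. Their log2 differences and tests took FPKM + 1 for both genes, where the scaling cancels only nearly. The ratio of HEMA1 to CHLH, the entry enzyme against the porphyrin-binding chelatase subunit, was 1.33, 1.24 and 1.27 in srl1-KO and 3.18, 2.91 and 2.39 in non-KO. The srl1-KO values lay close together and below all non-KO values, a log2 difference of -1.13. The ratio of PORA to PORB was 1.10, 1.60 and 1.29 in srl1-KO and 1.04, 0.543 and 0.826 in non-KO, also without overlap but with a small gap, a log2 difference of 0.76. Leaving out non-KO replicate 2 brought that difference to 0.50, and leaving out non-KO replicate 1 to 0.97. PORA accordingly made up 52.3% to 61.5% of the summed POR level in srl1-KO, against 35.2% to 51.0% in non-KO. Two-sided exact permutation tests of both ratios gave p = 0.1, the smallest possible, and 0.3 after adjustment over the 6 ratios compared.

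The other 4 ratios overlapped between genotypes. The ratio of CHLD to CHLI, the motor subunits of the chelatase, differed least between genotypes, at 0.340 to 0.390 in the srl1-KO libraries against 0.378 to 0.428 in the non-KO libraries. CHLH to CHLI was 0.724 to 0.944 in srl1-KO against 0.413 to 0.864 in non-KO, and CHLH to CHLD was 1.86 to 2.77 and 0.965 to 2.22. CAO1 to YGL1, the b-forming enzyme against chlorophyll synthase, was 0.358, 0.581 and 0.428 in srl1-KO and 0.113, 0.147 and 0.372 in non-KO. In these last 3 ratios non-KO replicate 3 lay inside the srl1-KO range and the other non-KO libraries lay below it. Their log2 differences, 0.54, 0.68 and 1.23, became 0.31, 0.41 and 0.90 when non-KO replicate 1 and 0.84, 1.00 and 1.71 when non-KO replicate 3 was left out. Their exact permutation p-values (two-sided) were 0.2 to 0.3, and 0.3 after adjustment.

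**Figure D3:**
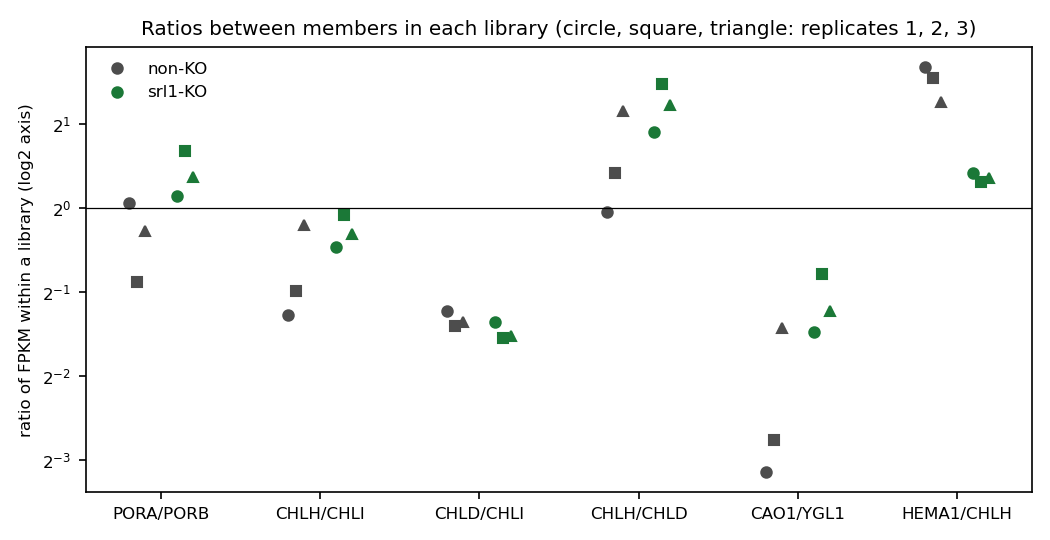
Ratio of the FPKM of 2 genes within each library (vertical axis, log2 scale) for 6 ratios, in non-KO (grey) and srl1-KO (green), with circles, squares and triangles for replicates 1, 2 and 3. The genotypes do not overlap for HEMA1/CHLH (1.24 to 1.33 against 2.39 to 3.18) and PORA/PORB, and overlap for the other 4.

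In srl1-KO, replicate 1 was the lowest library for 8 genes and the highest for 0. Replicate 2 was the lowest for 2 and the highest for 3, and replicate 3 was the highest for 7. Over all tested loci replicate 1 was the lowest at 36.8% and the highest at 28.8%. Replicate 3 was the lowest at 38.2% of them and the highest at 37.6%. The median deviation of the 10 genes from their srl1-KO means was -0.28, 0.07 and 0.21 on the log2 scale in replicates 1, 2 and 3, while the median over all tested loci lay between -0.02 and 0.02 in each of these srl1-KO libraries.

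The non-KO libraries differed in another way. Replicate 1 was the highest for 6 genes (CHLI, CHLD, PORA, PORB, DVR and YGL1) and the lowest for the other 4 (HEMA1, CHLH, CRD1 and CAO1). Replicate 3 was the highest for exactly those 4, and the lowest for 4 of the 6, the exceptions being PORA and PORB, which were lowest in replicate 2. Over all tested loci, non-KO replicate 1 was the highest at 28.4% and the lowest at 36.0%, and replicate 3 at 39.5% and 31.2%. The spread of a gene over the non-KO libraries ran from a coefficient of variation of 2.91% for PORB to 58.5% for CAO1, and over the srl1-KO libraries from 8.86% for CHLD to 29.7% for PORA.

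Other genes of the pathway were taken from a list of 20 loci written down from general knowledge of published rice assignments, with earlier results of these data known. For 9 of them the reference gene table places a gene of that name on the chromosome given by the identifier, and names are used for these. The other 11 could not be checked and are given by identifier only. Of the 9 named genes, 2 were lower in srl1-KO, 1 was higher and 6 missed the threshold. Of the 11 unchecked loci, 2 were too low to be tested, 1 was lower, 1 was higher and 7 missed the threshold. The share called was 33.3% of the named genes and 22.2% of the tested unchecked loci, or 27.8% of both together, near the 27.2% of all tested loci.

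The list of early steps holds 10 loci, of which 9 were tested. Of these 9, 3 fell (HEMB, HEMC and the unchecked Os03g0337600) and 0 rose, against 11.9% and 15.3% of all tested loci. Of the 9 log2 changes 8 were below 0, and the other was that of the unchecked Os01g0622300 (0.01), whose direction turned with TMM factors, with library weights and on leaving out single libraries. HEMB (Os06g0704600), which joins 5-aminolevulinic acid into porphobilinogen, was at 23.0, 23.7 and 26.0 FPKM in srl1-KO and at 41.3, 34.8 and 29.6 FPKM in non-KO. Its log2 change was -0.51 ± 0.14 (SE; limma adjusted p = 0.0375). HEMC (Os02g0168800), which links porphobilinogen units into a chain, was at 83.3, 86.7 and 93.1 FPKM in srl1-KO and at 136, 127 and 110.4 FPKM in non-KO. Its log2 change was -0.49 ± 0.12 (SE; limma adjusted p = 0.0229).

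These falls were small, and their calls turned on which library was left out. HEMB missed the threshold when a library was left out, be it any of srl1-KO or replicate 1 or 2 of non-KO (limma adjusted p from 0.0553 to 0.116), and HEMC when replicate 1 or 2 of either genotype was left out (0.0638 to 0.0842). With quantile normalization, HEMB and HEMC had adjusted p of 0.0693 and 0.0657 in limma, and with no filter HEMB had 0.0542.

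The other 3 named early genes did not pass the test. GSA (Os08g0532200), which makes 5-aminolevulinic acid from the product of HEMA1, had means of 224 ± 10.2 FPKM in srl1-KO and 297 ± 34 FPKM in non-KO (SD, n = 3 each; log2 change -0.40, limma adjusted p = 0.0552). PPO1 (Os01g0286600), the protoporphyrinogen oxidase, had means of 44.4 ± 8.52 and 59 ± 3.23 FPKM (SD, n = 3 each; log2 change -0.42, limma adjusted p = 0.0816). HEMD (Os03g0186100), which closes the ring of the tetrapyrrole, had means of 11.5 ± 0.494 and 13.4 ± 1.11 FPKM (SD, n = 3 each; log2 change -0.20, limma adjusted p = 0.199). Over the whole list of early steps, 6 of the 9 tested loci were lower in every srl1-KO library than in every non-KO library, a pattern found at 17.8% of all tested loci. These 6 are the 5 named genes and 1 of the 4 unchecked loci. Since the list was written with earlier results of these data known, its share describes these loci and is not a test. GSA passed the threshold without non-KO replicate 3 (limma adjusted p = 0.0351) and PPO1 without srl1-KO replicate 3 (0.0207), and both did with TMM factors (0.032 and 0.0413).

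Outside the early steps, GLK1 (Os06g0348800) rose. It encodes a GOLDEN2-like transcription factor known to activate chloroplast and chlorophyll synthesis genes in rice. GLK1 reached 26.8, 45.2 and 40.0 FPKM in srl1-KO and 6.84, 9.35 and 15.2 FPKM in non-KO, without overlap. Replicate 1 was the lowest of srl1-KO and replicate 3 the highest of non-KO. Among the 10 genes this also held for CHLH, CRD1, CAO1 and HEMA1, of which HEMA1 fell. It held as well for GLK2, HO1 and CHLP, which did not pass the test. Over all tested loci, replicate 1 was the lowest of srl1-KO at 36.8% and replicate 3 the highest of non-KO at 39.5%. The share of loci with both was not computed, so this order does not set these genes apart. The log2 change of GLK1 was 1.77 ± 0.31 (SE, limma adjusted p = 0.00772) and passed the threshold in all 17 other settings. Its relative GLK2 (Os01g0239000) was at 42.7 ± 4.22 and 37.5 ± 8.61 FPKM (SD, n = 3 each; limma adjusted p = 0.443).

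HO1 (Os06g0603000), the heme oxygenase of the branch that makes the phytochrome chromophore, was at 31.8, 35.1 and 38.4 FPKM in srl1-KO and at 20.9, 25.7 and 30.0 FPKM in non-KO. The genotypes did not overlap, and the log2 change of 0.46 missed the threshold (limma adjusted p = 0.0689) but passed it without non-KO replicate 3 (0.0391). CHLP (Os02g0744900), the geranylgeranyl reductase that makes the lipid tail, was the most abundant gene of the list, at 390.0 ± 95.2 and 365 ± 14.4 FPKM (SD, n = 3 each; limma adjusted p = 0.82).

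Of the unchecked loci, Os03g0337600 fell from 115 ± 13.4 to 81.8 ± 5.49 FPKM (SD, n = 3 each; log2 change -0.48, limma adjusted p = 0.0314). It missed the threshold on leaving out replicate 1 of either genotype, replicate 2 of srl1-KO or replicate 3 of non-KO (limma adjusted p from 0.0699 to 0.102). Os11g0267000 rose from 7.82 ± 1.02 to 15.3 ± 2.7 FPKM (SD, n = 3 each; log2 change 0.88, limma adjusted p = 0.009), and passed the threshold in all 17 other settings. Without srl1-KO replicate 3, Os02g0121000 and Os01g0510600 also passed as lower (limma adjusted p = 0.0355 and 0.0347). With all libraries, Os02g0121000 was at 37.8 ± 6.31 FPKM in srl1-KO and 52.8 ± 7.35 FPKM in non-KO (SD, n = 3 each; limma adjusted p = 0.0688). Os01g0510600 was at 44.5 ± 6.02 FPKM in srl1-KO and 56.3 ± 2.97 FPKM in non-KO (SD, n = 3 each; limma adjusted p = 0.0838). The most abundant unchecked locus that did not pass was Os05g0361200, at 253 ± 7.21 FPKM in srl1-KO and 302 ± 56.7 FPKM in non-KO (SD, n = 3 each).

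**Figure D4:**
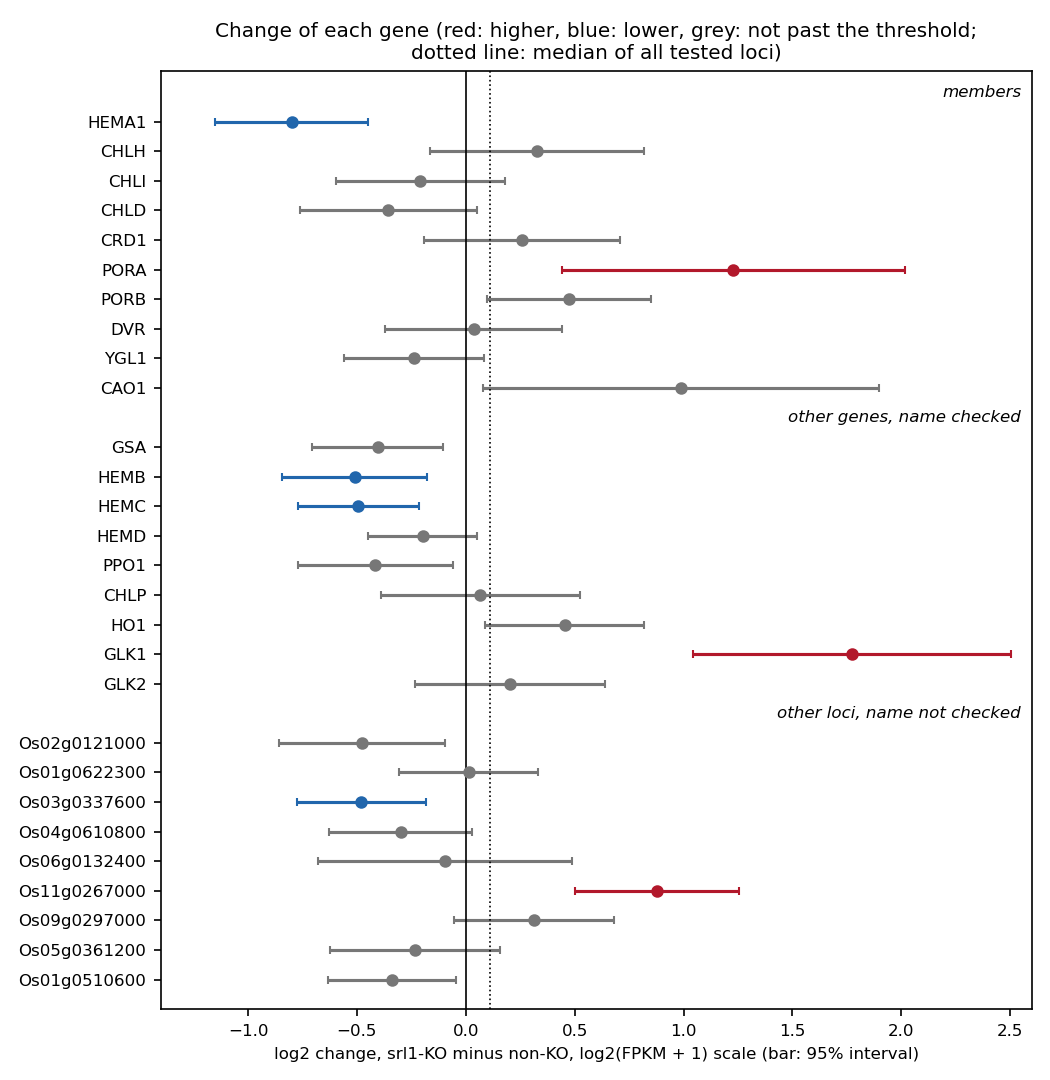
Log2 change between genotypes (horizontal axis, srl1-KO minus non-KO, with 95% intervals) for the 10 genes, the 9 other pathway genes with a checked name and the 9 tested loci without one. HEMA1, HEMB, HEMC and Os03g0337600 (blue) fell, PORA, GLK1 and Os11g0267000 (red) rose, and the dotted line marks the median of all tested loci at 0.11.

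How many fragments each library held is unknown, and FPKM, which is already scaled by library, does not show it. Spearman correlations across tested loci were 0.936 to 0.964 within a genotype and 0.846 to 0.864 between genotypes. Leaf identity was checked with 5 loci of Rubisco and antenna proteins, whose summed level was 10535 to 12862 FPKM in srl1-KO and 10707 to 16449 FPKM in non-KO. Among these, CAB2R (Os01g0600900), a chlorophyll-binding antenna protein, was at 1754, 3537 and 3008 FPKM in srl1-KO and 1101, 943 and 1729 FPKM in non-KO (limma adjusted p = 0.0523). Its lowest srl1-KO library was replicate 1 and its highest non-KO library replicate 3, as for HEMA1, CHLH, CRD1, CAO1 and GLK1. The same held for RCA (Os11g0707000), another of these 5 loci, and for GLK2, HO1 and CHLP. Over all tested loci these libraries were the lowest at 36.8% and the highest at 39.5%, and the share with both was not computed. A Rubisco small subunit locus, Os12g0291100, fell (log2 change -0.58, limma adjusted p = 0.0427), and the other 3 did not pass. The shoot meristem marker OSH1 was listed at 0 in 5 libraries and at 0.0171 FPKM in non-KO replicate 2, and the unchecked root marker locus Os02g0662000 at 0 in all 6.

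Secondary-wall cell markers (CESA4, CESA7 and CESA9) summed to 2.82 to 8.07 FPKM in srl1-KO and 2.05 to 18.4 FPKM in non-KO, highest in replicate 3 of each genotype, and 0 of 3 passed the test. Replicate 3 is also where HEMA1, CHLH, CRD1 and CAO1 were highest in non-KO and where 7 of the 10 genes were highest in srl1-KO. In that same non-KO library CHLI, CHLD, DVR and YGL1 were lowest. The part of these cells in the results was not tested. Of 4 loci listed for chlorophyll breakdown, 3 with a checked name did not pass the test. SGR, the STAY-GREEN protein, had means of 10.8 ± 7.91 FPKM in srl1-KO and 6.82 ± 3.49 FPKM in non-KO (SD, n = 3 each). The chlorophyll b reductase genes had means, in the same order, of 227 ± 29.3 and 198 ± 7.74 FPKM for NYC1 and of 16.6 ± 1.62 and 18.8 ± 1.66 FPKM for NOL (SD, n = 3 each). The unchecked locus Os03g0146400 rose from 12.5 ± 2.7 to 22.6 ± 3.08 FPKM (SD, n = 3 each; limma adjusted p = 0.0181).

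SRL1 itself (Os07g0102300, chromosome 7, an identifier that could not be checked) was at 1.62, 2.22 and 1.96 FPKM in srl1-KO and 2.50, 2.70 and 3.30 FPKM in non-KO. Its log2 change of -0.39 ± 0.15 (SE) missed the threshold (limma adjusted p = 0.107). Since a knockout allele may still be transcribed, these levels do not check the labels.

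**Figure D5:**
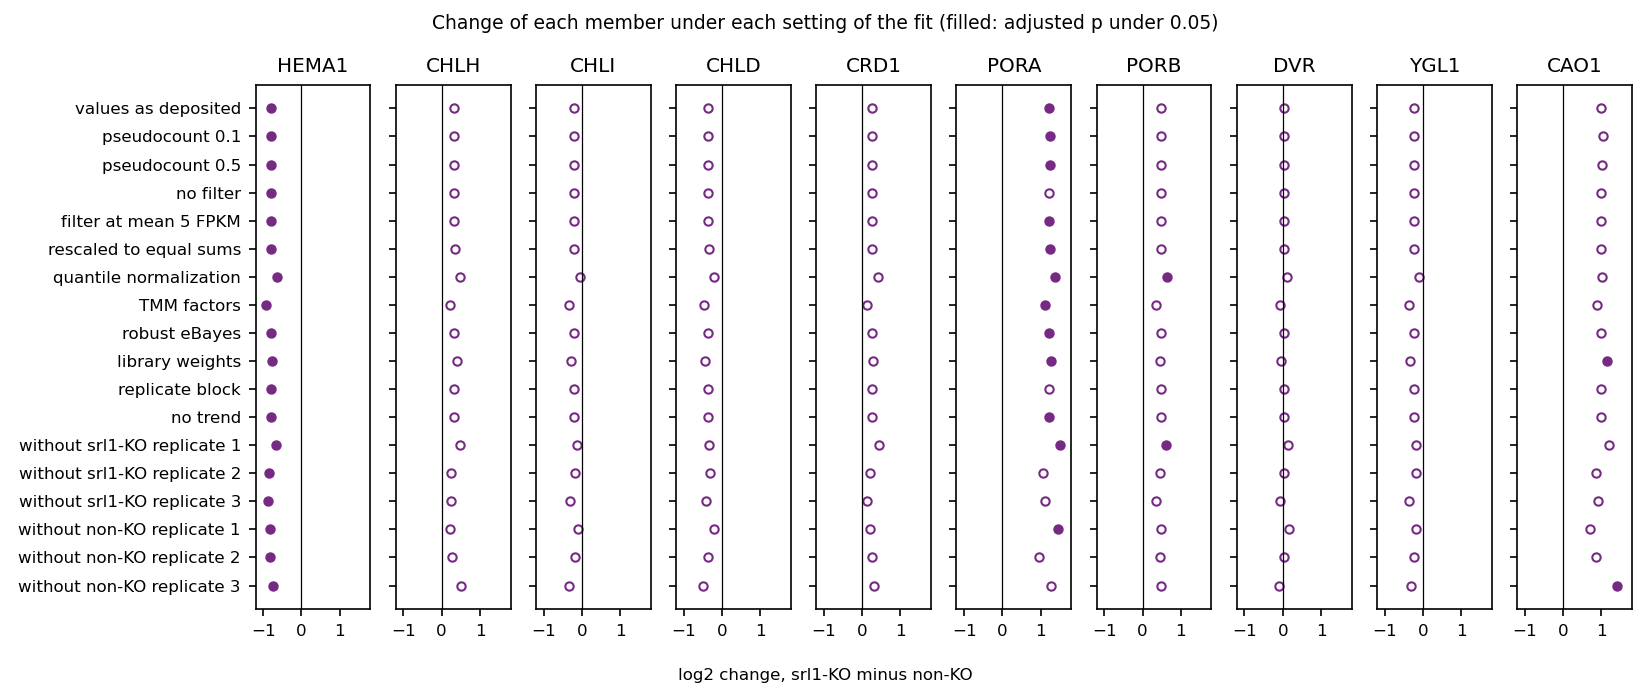
Log2 change of each of the 10 genes (horizontal axes, srl1-KO minus non-KO) with the values as deposited and under the 17 other settings of the fit, filled where the limma adjusted p was under 0.05. HEMA1 is filled throughout, PORA with the values as deposited and in 11 of the 17 other settings, and PORB and CAO1 in 2 each.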

How the data were processed

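Poly(A) RNA from 1 µg of total RNA was made into Illumina libraries with fragments near 240 bp, per the labels' protocols. The authors deposited FPKM values, 1 column per library, without pooling. HISAT2, DESeq2 and the build IRGSP-1.0 appear in the submitters' processing notes, and neither roles nor versions are given in the sources used here, nor are the annotation, the use of strand or the tool that made the FPKM values. Without strand, reads of overlapping antisense genes cannot be told apart. FPKM depends on the total of each library, so strongly changed abundant genes move the values of the rest.

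The deposited FPKM values of the 19556 loci averaging 1 FPKM or more were taken as log2(FPKM + 1) and fitted by genotype with limma 3.58.1, run in R 4.3.3 (mean-variance trend, two-sided, Benjamini-Hochberg adjustment over all tested loci, threshold 0.05). This scale understates changes of low genes. The fit was tested on simulated data. Within-library ratios and single genes were compared by exact permutation in scipy 1.17.1, also on values of log2(FPKM + 1). The test could not use counts: barely detected loci (under 0.1 FPKM) put the depth of the other 5 libraries between 0.886 and 0.949 of the depth of srl1-KO replicate 1, but gene lengths were not matched and whole fragments were not recovered. No counting interval can be given. No 2 libraries held identical values.

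The 10 genes and all lists were chosen with earlier results of these data known. All 10 genes are described, with every other pathway gene that passed and, for each list, the most abundant that did not. PPO1, HEMD, HO1, GLK2 and Os02g0121000 were added after their values were seen. Names were checked against the gene table of the assembly ASM3414082v1, which held 1 of the file's identifiers. It places a gene of the same name or a synonym on the chromosome of the identifier for 8 of the 10 genes, not for HEMA1 and CRD1, and the 39 pairs of checked names that share a chromosome were all ordered alike in identifiers and table. YGL1, CAO1 and PPO1 were matched through the synonyms CHLG, CAO and PPOX1, and the Rubisco small subunit loci through RBCS. These synonyms were chosen after the gene table was seen. The builds differ, so no coordinates are given, and sequences were not used here. Alternatives were 2 pseudocounts (0.1 and 0.5), no filter and a filter at 5 FPKM, equal sums, quantile normalization, trimmed-mean (TMM) factors, robust fitting, library weights, no trend, a replicate block and leaving out each library.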

Additional observations from a re-analysis of the deposited data

How the results depend on the processing

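Of the 10 genes, HEMA1 kept its call in all 17 other settings, and 9 kept their direction in all of them, DVR being the exception. The number of members past the threshold as lower was 1 throughout. The number higher was 1 with the values as deposited, 0 with no filter and with the replicate block, 2 with quantile normalization and with library weights, and 0 to 2 without 1 library. The number of other pathway genes lower was 3, became 0 with quantile normalization and with the replicate block and 7 with TMM factors and with library weights, and was 0 to 5 without 1 library; the number higher stayed at 2 to 3. Over all loci, 5321 were called with the values as deposited, 3649 with the block and 2943 to 4649 without 1 library. Leaving out a library or adding the block costs the fit power, which can lower such counts but does not fix their direction. Without srl1-KO replicate 3, for example, the number of other pathway genes lower went from 3 to 5. What caused the changes was not tested.

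TMM factors moved the median log2 change of all tested loci from 0.11 to 0.01 and the share of rises among calls from 56.3% to 42.2%. PORA and HEMA1 passed there too. The log2 change of DVR (0.04) turned to -0.079 with TMM factors and -0.041 with library weights, and ran from -0.092 to 0.15 without 1 library, so its direction is not determined. Likewise CHLP (0.07) went to -0.051 with TMM factors and -0.11 to 0.24 without 1 library, Os01g0622300 (0.01) to -0.10 with TMM factors, -0.048 with library weights and -0.074 to 0.12 without 1 library, and Os06g0132400 (-0.10) to 0.075 with quantile normalization and -0.34 to 0.047 without 1 library. SRL1 passed with quantile normalization (limma adjusted p = 0.0488). The 6 ratios kept their direction in the 8 settings run for them.

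The titles of both genotypes carry the numbers 1 to 3, and the labels do not say whether these pair the libraries. Across tested loci, the correlation of the deviations of 2 libraries of the same number was -0.05, 0.05 and 0.02, against -0.16 to 0.16 for different numbers. With the replicate block PORA missed the threshold (limma adjusted p = 0.0897), as did HEMB (0.0919), HEMC (0.0768) and Os03g0337600 (0.0784), while HEMA1, GLK1 and Os11g0267000 passed.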
